A study of Mus musculus with 4 samples.

Results

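N5 is 1 of the 6 neutrophil subsets in the authors' deposited table of names per cell, and its members are the cells that carry this name. They numbered 176 of 964 neutrophils and of 4440 CD45+ cells (blood-derived cells) from 3 mouse tumours. All mice carried the IL-12p40-IRES-EYFP transgene, which couples a yellow fluorescent protein to the p40 chain of interleukin-12 in every group, and no neutrophil held a UMI of the reporter. MC38 cells, a mouse colon carcinoma line, had grown in the flank for 7 days when mice received 5 mg/kg of an agonist anti-CD40 monoclonal antibody by the intraperitoneal route or were left untreated. Tumours were taken 2 days later, and CD45+ cells labelled with 7AAD, a dye of dead cells, were sorted and sequenced by inDrops, which tags each RNA molecule in a droplet with a unique molecular identifier (UMI). N5 held 14 cells of the untreated tumour and 96 and 66 cells of the 2 treated tumours, called anti-CD40 tumours 1 and 2. The age and sex of the mice are not in the labels. Each tumour is 1 replicate, so the untreated group has no replicate.

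Neutrophils are short-lived cells made in the bone marrow, where granule proteins are produced before release into blood. In tumours, neutrophils can live longer, meet low oxygen and change their secretion, and a state with high Siglecf, Ccl3 and Ccl4 has been described in mouse tumours. Ccl3 and Ccl4 are chemokines that attract monocytes, T cells and NK cells. Under low oxygen, hypoxia-inducible factors raise genes of glycolysis, lipid droplets and vessel growth through a short DNA core in their promoters.

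Of the 3 markers that go with the subset, Ccl3 and Ccl4 were abundant in N5, and Siglecf was not found. Siglecf, which encodes a sialic acid receptor best known from eosinophils, had 0 UMIs in 176 N5 cells, which allows a share of cells with a UMI of up to 1.70%. Among all 4440 cells it had 8 UMIs in 7 cells, and neutrophils held 5 of these UMIs. It was seen in subset N1b of both treated tumours and in N2 of anti-CD40 tumour 1, and not in N1a, N3 or N5. With so few UMIs, its absence from N5 could not be told apart from its low capture in these libraries. All 10 neutrophil markers were detected in N5, with a summed level of 27889.7, 33829.5 and 38345.9 UMIs per 1000000 UMIs (CPM) in the untreated tumour and anti-CD40 tumours 1 and 2. The same markers summed to 53173, 83373.9 and 58174.9 CPM in subset N3, so N5 was lower in each tumour. A list of 9 eosinophil genes had 0, 2 and 0 UMIs in N5, and Epx, an eosinophil granule peroxidase, was at 0. Macrophage markers summed to 2, 3 and 13 UMIs, with C1qb, C1qc, Adgre1, Mrc1, Fcrls and Mertk at 0 in all 3 tumours. Markers of T cells (0, 2 and 0 UMIs) and dendritic cells (0, 1 and 0 UMIs) were near 0. Of the B cell markers Ighm alone was found, with 1, 17 and 15 UMIs. By the 2-fold rule given below Ighm was higher in N5, with log2 ratios of 1.26 and 1.18 in the treated tumours. Without N5 cells or other cells holding at least 3 UMIs of a second type's markers, 247 genes were higher and 492 lower in N5, in place of the 259 and 494 given below.

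Depth in N5 was low and unequal. An N5 cell held a median of 384.5 UMIs when untreated, and 765 and 612 UMIs in the 2 treated tumours, with totals of 6203, 72895 and 45898 UMIs. No cell barcode was shared between libraries. In untreated cells, 484 CPM in N5 and 435 CPM in N3 stand for 3 UMIs, so no direction is read from levels as low as these. Levels below are UMIs of a gene summed over the N5 cells of a tumour, as CPM, and intervals are exact 95% Poisson or binomial intervals that cover counting error only.

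The following promoters are shown because genes of the low-oxygen response and heat shock genes were among those higher in N5 than in the other subsets. The bases are from RefSeq, build GRCm38.p6, trimmed to those upstream of both the RefSeq and the GENCODE start site and written 5′ to 3′ on the gene's strand. Capitals mark the core ACGTG or its reverse complement CACGT, which hypoxia-inducible factors can bind, in the first 3 promoters, and GAANNTTC, an inverted pair of heat shock factor motifs, in the fourth.
Bnip3, chr7:138909520-138909756, minus strand: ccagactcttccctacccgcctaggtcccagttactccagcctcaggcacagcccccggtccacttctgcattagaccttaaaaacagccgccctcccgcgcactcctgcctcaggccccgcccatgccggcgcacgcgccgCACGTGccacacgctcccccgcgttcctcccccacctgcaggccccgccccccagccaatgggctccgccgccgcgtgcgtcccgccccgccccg
Egln3, chr12:54203875-54204124, minus strand: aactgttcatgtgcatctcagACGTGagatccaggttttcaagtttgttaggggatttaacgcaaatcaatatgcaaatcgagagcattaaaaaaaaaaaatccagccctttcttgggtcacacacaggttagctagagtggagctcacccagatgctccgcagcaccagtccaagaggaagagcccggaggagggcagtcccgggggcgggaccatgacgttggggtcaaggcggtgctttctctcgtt
Hk2, chr6:82774455-82774704, minus strand: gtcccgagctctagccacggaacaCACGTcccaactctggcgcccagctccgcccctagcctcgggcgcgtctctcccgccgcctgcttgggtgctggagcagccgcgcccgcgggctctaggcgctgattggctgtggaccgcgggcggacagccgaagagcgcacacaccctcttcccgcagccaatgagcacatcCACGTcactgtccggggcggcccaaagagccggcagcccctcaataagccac
Hspa1b, chr17:34959239-34959488, minus strand: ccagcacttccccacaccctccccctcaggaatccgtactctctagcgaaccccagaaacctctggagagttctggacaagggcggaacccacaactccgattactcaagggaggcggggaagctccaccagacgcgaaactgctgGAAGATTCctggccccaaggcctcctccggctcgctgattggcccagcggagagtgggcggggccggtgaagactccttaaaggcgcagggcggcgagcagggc
In Bnip3 the 2 matches overlap within CACGTG, and Egln3 and Hk2 hold 1 and 2 separate matches. The shares were counted over the untrimmed 250 bases before any RefSeq start of a gene. There ACGTG, searched on both strands, was in the promoters of 10 of 13 hypoxia and glycolysis genes that were higher in N5 (76.9%) and of 3 of the 9 other members of that list (33.3%). In Ero1l and Slc2a1, which are among the 10, the trimmed bases hold no match. Over all 27025 genes with an entry, 18.5% held it. GAANNTTC was in 7.73% of all promoters and also had 1 match in that of Hspa1a. These matches are a description of letters, base composition was not matched, and no binding was measured.

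N5 made up 28.6% of neutrophils in the untreated tumour (exact interval 16.6 to 43.3), 13.7% in anti-CD40 tumour 1 (11.3 to 16.5) and 30.7% in anti-CD40 tumour 2 (24.6 to 37.3). Anti-CD40 tumour 1 was below the untreated value and anti-CD40 tumour 2 close to it. In sequencing pool 1 the share was 38.5% in the untreated tumour and 16.4% in the first treated tumour, and in pool 2 it was 17.4% and 11.8%. Anti-CD40 tumour 2 filled pools 3 and 4 alone, with 30.4% and 31.0%. By library it ranged from 12.5 to 46.7% (untreated), from 11.5 to 16.9% (treated tumour 1) and from 22.6 to 38.3% (treated tumour 2). The libraries of the 2 treated tumours did not overlap, and those of the untreated tumour overlapped both. As a share of all CD45+ cells, N5 was 1.00% (0.548 to 1.67), 7.83% (6.39 to 9.48) and 3.64% (2.82 to 4.60), so both treated tumours were above the untreated one. Neutrophils as a whole were 49 of 1399, 700 of 1226 and 215 of 1815 CD45+ cells, and so were higher there too. With 1 against 2 tumours these shares were not tested.

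**Figure D1:**
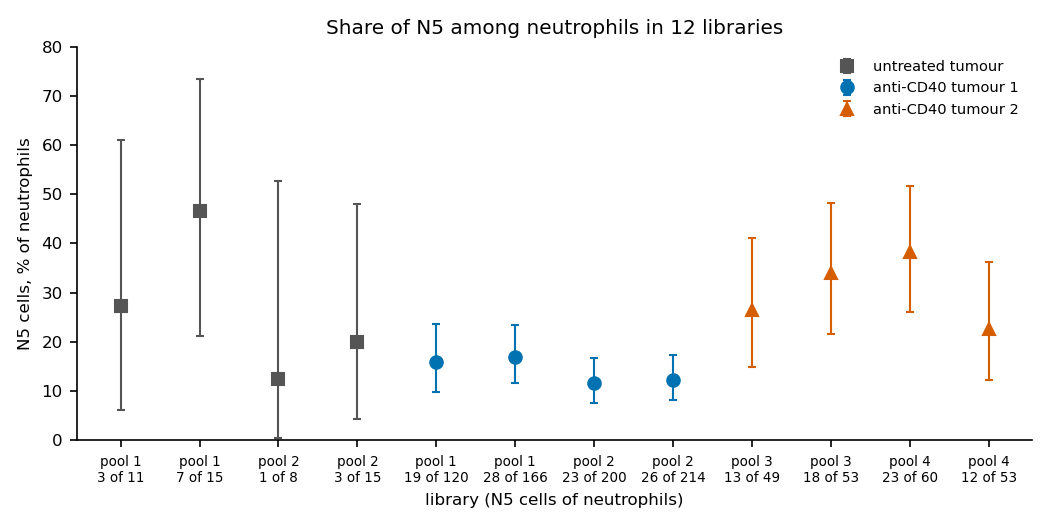
N5 cells as a percent of the neutrophils in each of the 12 libraries, 4 for each tumour, with exact 95% Clopper-Pearson intervals as bars. Libraries of anti-CD40 tumour 1 lie between 11.5 and 16.9% and those of anti-CD40 tumour 2 between 22.6 and 38.3%.

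N5 was set beside the other subsets with enough treated cells (N1a, N1b, N2 and N3) in the 2 treated tumours. A gene was counted as higher or lower when N5 was at least 2-fold above or below the mean of those 4 subsets in both tumours, with 25 CPM added to each level. The subsets were named by the authors from the same cells' transcripts, so these differences describe the subset and carry no test. Of 2224 genes, 259 were higher (11.6%) and 494 were lower (22.2%), and the median log2 ratio over all of them was −0.24 in tumour 1 and −0.44 in tumour 2. Levels in CPM sum to the same total in each subset, so this median moves the split of higher against lower. With ratios centred on it, 368 genes were higher and 341 lower. The higher genes took 31.5 and 34.4% of N5 UMIs in the 2 treated tumours, against 17.1 and 20.04% in N3 and 3.99 and 4.01% in N1a. N3 was the highest of the other subsets for 232 of the 259 higher genes. Across these genes, the correlation of log levels between N5 and N3 was 0.823 and 0.839, above those with N2 (0.559 and 0.583), N1b (0.458 and 0.418) and N1a (0.364 and 0.355), a description over genes that share libraries.

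**Figure D2:**
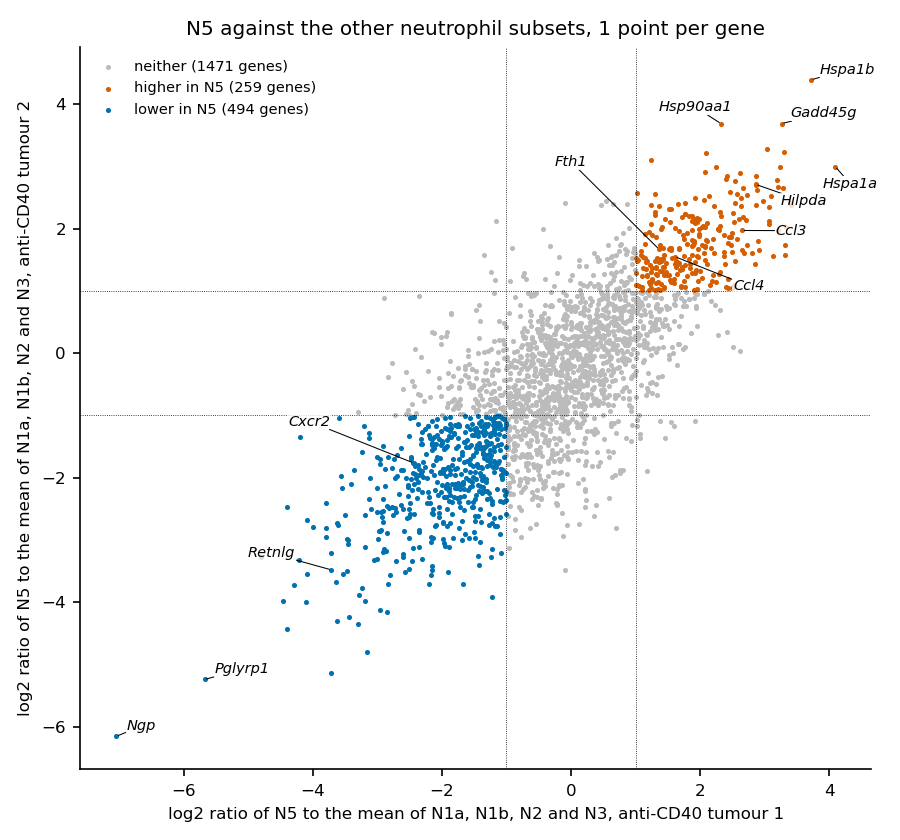
Log2 ratio of the level in N5 to the mean of N1a, N1b, N2 and N3, with anti-CD40 tumour 1 on the x axis and anti-CD40 tumour 2 on the y axis, for 2224 genes. Dotted lines mark a 2-fold difference, beyond which 259 genes are higher and 494 lower in both tumours.

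The 20 highest genes were Hspa1b, Gadd45g, Cstb, Ciart, Hspa1a, Ccdc126, Aph1c, Hk2, Hilpda, Cldn1, Fnip2, Atf3, Ifrd1, Itpr2, Vegfa, Tatdn2, Rab9, Ero1l, Gpsm1 and Slc31a2. All 20 were also at least 2-fold above N3 and above every other subset in both treated tumours. They were chosen as the most extreme genes, and some rest on few UMIs. In anti-CD40 tumour 2, Gpsm1 had 16 UMIs in N5 and 9 in N3, with a ratio of 2.19 (0.912 to 5.63). Aph1c had 10 and 2 UMIs there. The untreated tumour did not enter this choice, though its cells were named from the same transcripts, and N5 there could be set beside N2 and N3. Of 77 higher genes with at least 10 UMIs in those untreated cells, 61 were above the mean of N2 and N3 and 16 below, with a median log2 ratio of 1.12. Of 80 lower genes, 70 were below, with a median of −1.02, while over all 400 such genes 226 were below, with a median of −0.24. The 10 UMIs were summed over N5, N2 and N3, so a higher gene could enter through its N5 UMIs alone. These counts describe the subset and are no separate check.

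Ccl3 (chr11:83647844-83649355, minus strand in GRCm38) was at 7899, 16160.2 and 17473.5 CPM in N5 of the untreated tumour and anti-CD40 tumours 1 and 2. N3 had 4347, 8809 and 13784 CPM, and N2 had 270, 1039 and 2940.4 CPM. In N1a of the treated tumours it was at 172 and 262 CPM. The order N5, N3, N2 held in all 3 tumours, and the ratio of N5 to N3 was 1.83 (1.68 to 2.00) in tumour 1 and 1.27 (1.15 to 1.40) in tumour 2, under the 2-fold bound. Ccl4 (chr11:83662584-83664683, plus strand) was at 3869, 12552 and 13900.4 CPM in N5 and at 9707, 12029.6 and 12017 CPM in N3. Its N5 level was close to that of N3 in the treated tumours, with ratios of 1.04 (0.958 to 1.14) and 1.16 (1.04 to 1.29), and below it in the untreated tumour. Neither chemokine was 2-fold apart from N3 in any treated tumour. At least 1 UMI of Ccl3 was in 155 of 176 N5 cells (88.1%, 82.3 to 92.5), in 80.5% of N3 cells and in 2.10% of T cells. T cells are only a rough guide to free RNA, which was not told apart from their own transcripts. The median depths of N5, N3 and T cells were 660, 713.5 and 575 UMIs. With each cell thinned to 300 UMIs, which left out 15 N5, 22 N3 and 35 T cells, these shares were 83.9, 70.7 and 1.34%. Ccl4 was seen in 63.6% of N5, 65.9% of N3 and 6.01% of T cells.

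**Figure D3:**
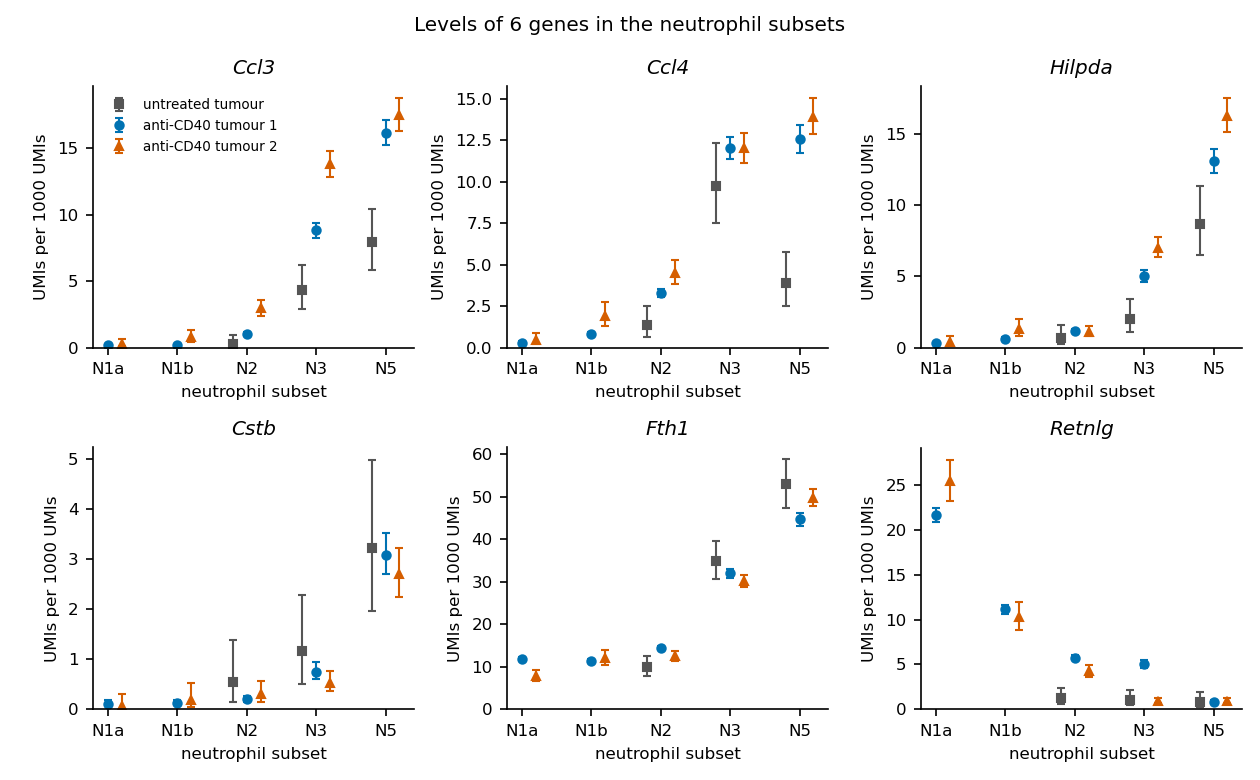
Levels of Ccl3, Ccl4, Hilpda, Cstb, Fth1 and Retnlg, in UMIs per 1000 UMIs, in the neutrophil subsets of each tumour, with exact 95% Poisson intervals. Hilpda, Cstb and Fth1 are highest in N5 in each tumour, Ccl4 is near its N3 level in the treated tumours, and untreated N1a and N1b (0 and 4 cells) are not drawn.

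Among 15 chemokine genes, 9 were abundant enough to be counted, of which Ccl3 and Ccl4 were higher and Ccl5, a T cell attractant, was lower. Counts in this and the following lists stand against 11.6% higher and 22.2% lower over all genes counted. Cxcl2, which draws neutrophils through CXCR2, was at 31275, 45243 and 48760.3 CPM in N5 and at 35497, 39684 and 52502 CPM in N3. Cxcl2 thus did not separate these subsets. Cxcl3 of the same family was at 1935, 6804 and 2353 CPM in N5 against 9562, 15287 and 8942 CPM in N3. The Cxcl3 ratio of N5 to N3 was 0.445 (0.402 to 0.492) and 0.263 (0.212 to 0.325) in the treated tumours. Of 15 cytokine genes, 7 were counted, with Il1a, Il1rn and Vegfa higher and Osm lower. Il1b, the main secreted interleukin-1, was at 6287, 7627 and 10305.5 CPM in N5 and at 27094, 19594 and 29335 CPM in N3. Il1rn, which blocks the interleukin-1 receptor, was at 7738, 6256 and 4466 CPM in N5 and at 3912, 3389 and 2580.0 CPM in N3. N5 was therefore lower than N3 for Il1b and higher for Il1rn in every tumour, with Il1b ratios of 0.389 (0.354 to 0.428) and 0.351 (0.317 to 0.389) and Il1rn ratios of 1.85 and 1.73 in the treated tumours.

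Of 24 receptor genes, 21 were counted, none higher and 7 lower (Cxcr2, Csf3r, Fpr1, Fpr2, Trem1, Clec5a and Tlr2). The 7 made up 33.3% of counted receptors, against 22.2% lower over all genes. With centred ratios 1 receptor was higher and 4 were lower. Cxcr2, the receptor that calls neutrophils out of the marrow and into tissue, was at 484, 412 and 523 CPM in N5 and at 1739, 2116 and 1749 CPM in N3. Its ratio of N5 to N3 was 0.195 (0.128 to 0.285) in tumour 1 and 0.299 (0.183 to 0.471) in tumour 2. Fpr1, which senses bacterial formyl peptides, was at 161, 68.6 and 131 CPM in N5 and at 0, 889 and 424 CPM in N3. N5 was the lower of the pair for both genes in the treated tumours. Against N3 alone, 5 of the receptors were lower (Cxcr2, Fpr1, Fpr2, Trem1 and Cd14).

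The hypoxia and glycolysis list had the most higher genes. Of 23 counted members of 24, 14 were higher and none lower, with a median log2 ratio of 1.57 and 1.55 in the 2 treated tumours. The 14 were Hilpda, Vegfa, Ero1l, Bnip3, Bnip3l, Egln3, Slc2a1, Hk2, Ldha, Pfkp, Mif, Tpi1, Pgam1 and P4ha1. Hilpda (chr6:29272488-29275446, plus strand), an inhibitor of fat breakdown in lipid droplets, was at 8705, 13101 and 16319 CPM in N5, at 2028, 5037 and 7033 CPM in N3, and at 312 and 420 CPM in treated N1a. N5 was highest in every tumour, with ratios to N3 of 2.60 (2.34 to 2.90) and 2.32 (2.05 to 2.63). Hilpda was seen in 160 of 176 N5 cells (90.9%, 85.7 to 94.7), in 71.4% of N3 and in 18.6% of T cells, or 88.8, 58.1 and 10.7% after thinning.

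Hk2, which starts glycolysis by phosphorylating glucose, was at 1289.7, 1591 and 1874 CPM in N5 and at 1739, 393 and 707 CPM in N3. Its ratio to N3 was 4.05 (2.82 to 5.91) and 2.65 (1.80 to 3.96) in the treated tumours, while the untreated tumour had the higher Hk2 level in N3. Bnip3, a receptor for removal of mitochondria, was at 1128.5, 1536 and 1459.8 CPM in N5 and at 579.5, 683 and 442 CPM in N3. Vegfa, the main growth factor of blood vessels, was at 1128.5, 1509 and 1438 CPM in N5 and at 1594, 618 and 512 CPM in N3. Both genes were thus higher in N5 in the treated tumours. Ero1l, an oxidase that forms disulfide bonds in the endoplasmic reticulum, was at 1451, 1825 and 1874 CPM in N5 and at 724, 889 and 725 CPM in N3. Hilpda, Vegfa, Ero1l, Bnip3, Bnip3l and Hk2 were the 6 members that were also 2-fold above N3 and every other subset in both treated tumours. Ldha, Slc2a1 and Egln3, whose products make lactate, take up glucose and mark hypoxia-inducible factors for destruction, were 2-fold above N3 in neither treated tumour. The whole list took 3.14, 3.92 and 3.95% of N5 UMIs and 2.00, 2.20 and 2.09% of N3 UMIs.

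The lysosomal list had 17 counted members of 20, with 6 higher (Ctsb, Ctsl, Ctsz, Lgmn, Cstb and Cd68) and 1 lower (Ctsc). Cstb (chr10:78425669-78427622, plus strand), a cytosolic inhibitor of cathepsins, was at 3224, 3087 and 2702 CPM in N5, at 1159, 749 and 530.1 CPM in N3 and at 540, 195 and 303 CPM in N2. Its N5 level was the highest in every tumour and varied little between tumours, with ratios to N3 of 4.12 (3.18 to 5.39) and 5.10 (3.397 to 7.87). Ctsb, a cysteine protease of lysosomes, was at 2257, 3155 and 3181 CPM in N5 and at 724, 1376 and 919 CPM in N3. Ctsl, another such protease, was at 484, 343 and 871 CPM in N5 and at 0, 140.4 and 406 CPM in N3. Cd68, a glycoprotein of the lysosome membrane, was at 484, 590 and 566 CPM in N5 and at 289.8, 262 and 212 CPM in N3. Ctsb was above N3 in all 3 tumours, and Ctsl and Cd68 in the treated ones, since their untreated N5 levels rest on 3 UMIs each. Against N3 alone 7 members were higher, the same 6 and Lamp1. Ctsb, Ctsl, Lgmn and Cd68 are also abundant in macrophages, whose defining markers had 2, 3 and 13 UMIs in N5. The list took 1.23, 1.37 and 1.19% of N5 UMIs and 0.594, 0.579 and 0.523% of N3 UMIs.

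Of 15 iron and antioxidant genes, 9 were counted, with Fth1, Ftl1, Hmox1 and Sqstm1 higher and none lower. Fth1, the heavy chain of the iron store ferritin, was at 52878, 44653 and 49741 CPM in N5 and at 34917, 31942 and 30059 CPM in N3. Ftl1, the light chain, was at 9028, 7188 and 8824 CPM in N5 and at 3477, 3024 and 3587 CPM in N3. Hmox1, which breaks down heme, was at 2579, 2277 and 2462 CPM in N5 and at 289.8, 1039 and 760 CPM in N3. N5 was highest for the 3 genes in every tumour, and the Hmox1 ratio to N3 was 2.19 (1.71 to 2.81) and 3.24 (2.26 to 4.72). Against N3 alone, Ftl1 and Hmox1 passed 2-fold. The list took 6.79, 5.71 and 6.48% of N5 UMIs and 4.09, 3.88 and 3.61% of N3 UMIs.

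Of 18 counted stress and immediate-early transcription genes, 9 were higher (Atf3, Atf4, Ddit3, Hspa5, Ppp1r15a, Jun, Bhlhe40, Maff and Klf6) and 3 lower (Fosb, Ier2 and Nr4a1). Atf3, a stress-induced transcription factor, was at 645, 1043 and 1503 CPM in N5 and at 1014, 384 and 459.5 CPM in N3, so N5 was above N3 in the treated tumours only. Gadd45g, a stress and growth arrest protein, was at 484, 960.3 and 2135 CPM in N5 and at 0, 206 and 389 CPM in N3. Ciart, a repressor in the circadian clock, was at 967, 672 and 1351 CPM in N5 and at 0, 197 and 406 CPM in N3. Nr4a1, an orphan nuclear receptor, was at 322, 398 and 218 CPM in N5, at 869, 534 and 477 CPM in N3 and at 3105, 2795 and 2849 CPM in N2, so its low level was shared with N3. Against N3 alone, Atf3 and Jun were higher and Fosl2 lower. NF-kB targets, which include many inflammatory genes, had 3 higher (Ccrl2, Ier3 and Irak2) and 5 lower (Nfkb1, Nfkb2, Tnfaip2, Bcl3 and Marcksl1) of 21. These shares (14.3 and 23.8%) were close to those of all genes (11.6 and 22.2%), as were the medians of −0.19 and −0.54. Against N3 alone, none of the NF-kB targets was higher and 3 were lower (Nfkbie, Nfkb1 and Marcksl1).

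The heat shock genes Hspa1a and Hspa1b, near-identical copies whose UMIs may have been split uncertainly, came from few cells. Hspa1b was at 0, 699.6 and 3529.6 CPM in N5, and libraries of anti-CD40 tumour 2 ranged from 0 to 10047 CPM. It was detected in 14 of 176 N5 cells (7.95%, 4.42 to 12.99), 3.64% of N3 and 4.20% of T cells. The 10 N5 cells with the most UMIs held 91.5% of them, and 1 cell held 53. Untreated N3 had 1594 CPM of Hspa1b, so its level varied between tumours in that subset too. Of the N5 cells, 8 had both genes, 11 had only Hspa1a and 6 only Hspa1b.

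Genes of the list named for the mature circulating neutrophil, which also holds granule genes made in the marrow such as Ngp, were lower in N5. This was against the mean of the other subsets, and much of it was shared with N3. Of 24 counted, 22 were lower and none higher, with median log2 ratios of −3.27 and −2.77, and 18 were lower with centred ratios. Against N3 alone 6 were lower (Mmp8, Mmp9, Cxcr2, Lyz2, Lrg1 and Mcemp1), with medians of −1.39 and −0.47. Retnlg, a resistin-like protein abundant in young neutrophils, was at 806, 809.4 and 893 CPM in N5 and at 1014, 5008 and 937 CPM in N3. In N1a of the treated tumours it was at 21709 and 25494 CPM, and the difference between N5 and N3 was seen in tumour 1 but not in tumour 2 (ratio 0.954). S100a8, a calcium-binding alarmin, was at 6609.7, 7298 and 8366 CPM in N5, at 7969, 20595 and 10939 CPM in N3 and at 54329 and 50307 CPM in N1a. The untreated tumour showed little difference between N5 and N3 for either gene. Among the 10 lowest genes were Ngp, Pglyrp1, Ifitm6, Nfam1, Ripor2, Hp, Crispld2, Mgst1 and Wfdc21, of which Ifitm6 has close paralogs. Ngp, a granule protein made in the marrow, had 0 UMIs in N5 of the treated tumours and was at least 79.3-fold and 26.9-fold lower than the mean of the other subsets, with 3 UMIs over the tumour's N5 cells as the floor. Wfdc21, a secreted protease inhibitor-like protein, was 20.3-fold and 13.02-fold lower.

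Few interferon and antigen presentation genes passed the 2-fold bound. Of 31 counted type I interferon genes none was higher and 2 were lower (Irf7 and Slfn1), with medians of −0.04 and −0.73 against −0.24 and −0.44 for all genes, and with centred ratios 1 was higher and none lower. Rsad2, an antiviral enzyme, was at 1935, 7271 and 4314 CPM in N5 and at 4781, 3595 and 3004 CPM in N3, above N3 only in the treated tumours. Of 11 counted MHC class I genes, H2-D1 was the 1 lower gene and none was higher, and with centred ratios none passed. The 9 counted survival genes held 2 higher (Bcl2a1a, which has close paralogs, and Bcl2l1). The 7 counted immunosuppressive and lipid genes held 2 higher, Cd274 and Plin2. The list of genes of Siglecf-high tumour neutrophils had 17 counted members, 11 higher and none lower, with medians of 2.06 and 1.37. That list was compiled with such cells in view and is no independent evidence, and against N3 alone 5 were higher (Cstb, Ctsb, Lgmn, Hilpda and Atf3) and 2 lower (Tgm2 and Cxcl3).

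**Figure D4:**
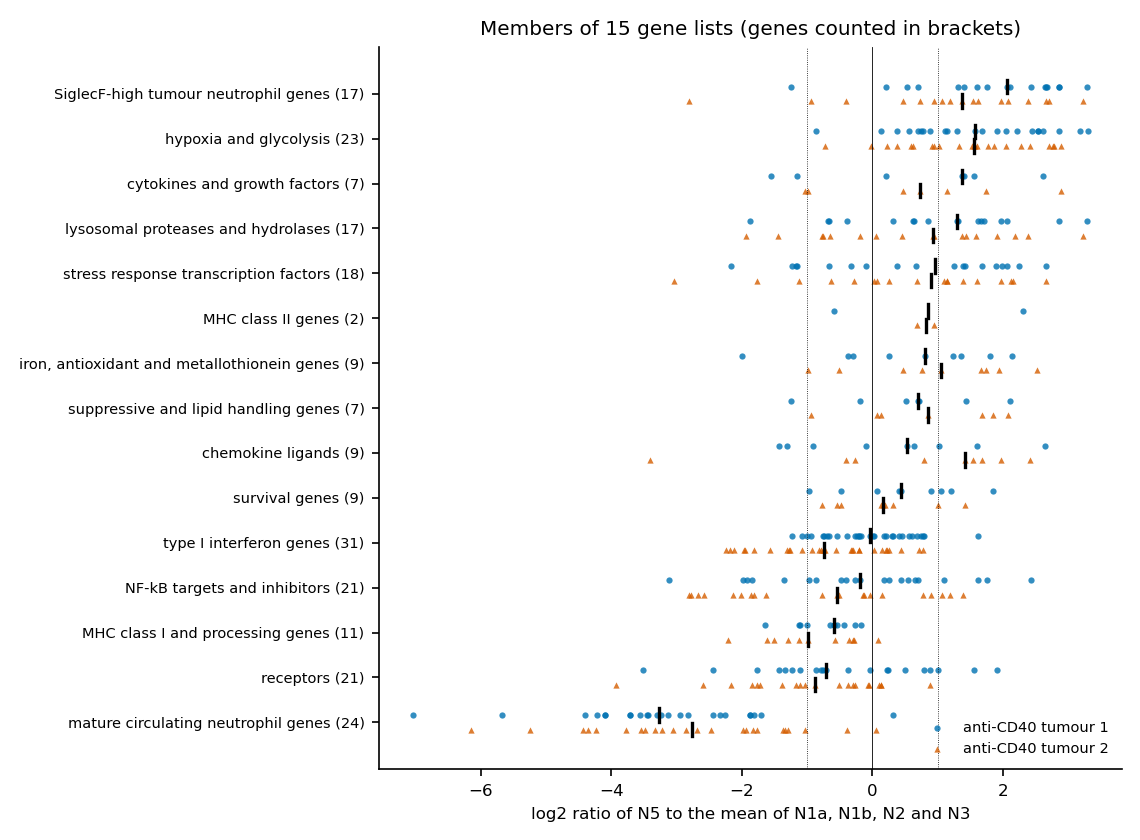
Log2 ratio of N5 to the mean of the other 4 subsets for each counted member of 15 gene lists, with a point for each gene in each treated tumour and black ticks at the medians. The hypoxia and glycolysis list has medians of 1.57 and 1.55, and the mature neutrophil list −3.27 and −2.77.

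Ccl3 and Hilpda were each seen in most N5 cells (88.1 and 90.9%), so their joint detection largely follows from these shares. They were both seen in 142 of 176 cells, Ccl3 alone of this pair in 13, Hilpda alone in 18 and neither in 3. Ccl3 and Ccl4 were both seen in 105 cells, Ccl3 alone in 50 and Ccl4 alone in 7. The Ccl3 level by library ranged from 5181 to 9217 CPM in the untreated tumour, from 13616 to 17096 CPM in anti-CD40 tumour 1 and from 13429 to 21939 CPM in anti-CD40 tumour 2. The treated libraries lay above the untreated ones for Ccl3. The 4 untreated libraries are parts of 1 tumour and not replicates. They held 3, 7, 1 and 3 N5 cells with 12, 26, 2 and 9 Ccl3 UMIs. For Cstb the libraries ranged from 2304 to 7772, from 2895 to 3350.3 and from 2202 to 3026 CPM, so that the tumours overlapped.

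Whether anti-CD40 changed gene levels within N5 was tested on UMIs summed per tumour, 2 treated against 1 untreated, with edgeR's quasi-likelihood test and Benjamini-Hochberg adjustment over 919 genes. In this fit 12 genes were higher after treatment (1.31% of those tested) and 3 lower (0.326%), with 126 genes at an unadjusted p under 0.05. The higher genes were Hspa1b, Hspa1a, Hsp90aa1, Ptgs2, Lmnb1, Cebpb, Odc1, Plin2, Samsn1, Ccr1, Bcl2l1 and Cd274, and the lower genes Gnai2, Csf1 and Ptpre. With plain library sizes in place of TMM scaling, 2 were higher and 3 lower. Untreated N5 gave 14 cells and 6203 UMIs, and with no second untreated tumour the spread was taken from the treated pair (1 residual degree of freedom). Without anti-CD40 tumour 2, which leaves pools 1 and 2, shared by the untreated tumour and anti-CD40 tumour 1, all 15 genes kept their direction. That is no separate check, since the same counts went into choosing these 15 genes. With only genes of at least 20 UMIs, without N5 cells holding markers of a second cell type, or with cells thinned to 300 UMIs, no gene passed, with 96, 108 and 43 at an unadjusted p under 0.05.

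Cd274 (chr19:29367455-29388095, plus strand), which encodes PD-L1, an inhibitor of T cells, was at 967, 3100.4 and 3529.6 CPM in N5 of the untreated tumour and anti-CD40 tumours 1 and 2. Both treated tumours lay above the untreated one, with a log2 fold change of 2.13 ± 0.63 (SE) and an edgeR adjusted p of 0.0492. It was seen in 28.6% of untreated N5 cells (8.39 to 58.1) and in 69.8% (59.6 to 78.7) and 81.8% (70.4 to 90.2) of treated ones. These shares were taken without thinning, and untreated N5 cells held a median of 384.5 UMIs against 765 and 612 in treated ones. With N5 cells thinned to 300 UMIs, Cd274 changed by 1.35 on the log2 scale and did not pass. It also fell short with plain library sizes, with DESeq2 and without pool 1, 2 or 3, and passed with no filter and without pool 4. In N3 it was at 2753, 1816 and 1749 CPM, which is the opposite order. Whether the change in N5 differed from that in N3 was not tested.

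Ptgs2, the inducible enzyme of prostaglandin synthesis, was at 645, 2963 and 3682 CPM in N5 (log2 fold change 2.72 ± 0.69, edgeR adjusted p = 0.0191). In N3 it was at 4491, 3791 and 6821 CPM, above N5 in every tumour. Plin2, a coat protein of lipid droplets, was at 967, 3416 and 4118 CPM (2.32 ± 0.64 on the log2 scale, edgeR adjusted p = 0.0364). With Cd274 these made up the 3 of 7 tested immunosuppressive and lipid genes that passed. Cebpb, a transcription factor of emergency neutrophil production, was at 1612, 7723 and 6689 CPM (2.51 ± 0.66, edgeR adjusted p = 0.0209), with 5940.3, 8341 and 7528 CPM in N3. Ccr1, a receptor for Ccl3, was at 806, 3443 and 2418 CPM (2.21 ± 0.65, edgeR adjusted p = 0.0492) and was the only 1 of 17 tested receptors to pass. Bcl2l1, an inhibitor of cell death, and Odc1, which starts polyamine synthesis, had 0 UMIs in untreated N5 and were at least 1.55-fold and 1.93-fold higher in treated N5. Lmnb1, of the nuclear lamina, and Samsn1, an adaptor protein, had 2 and 3 untreated UMIs and ratios of 5.98 (1.64 to 49.7) and 4.51 (1.53 to 22.0). Ptgs2, Plin2 and Ccr1 did not pass with plain library sizes, with DESeq2 or without pool 1 or 3, and passed without pool 4.

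Heat shock genes had the lowest edgeR adjusted p-values, and the UMIs of Hspa1b and Hspa1a came from few cells. Hspa1b, Hspa1a and Hsp90aa1 did not pass with plain library sizes or without pool 1, 2 or 4, and passed without pool 3. Hspa1b and Hspa1a had 0 UMIs in untreated N5, were at least 3.71-fold and 2.35-fold higher in treated N5, and had edgeR adjusted p-values of 0.000155 and 0.0144. Hsp90aa1, a chaperone, was at 322, 1317 and 3181 CPM, with 2 untreated UMIs and a ratio of 6.32 (1.73 to 52.5). In N3 the order was different, with Hspa1b at 1594, 18.7 and 548 CPM and Hsp90aa1 at 1449, 646 and 406 CPM.

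Csf1, the growth factor of macrophages, was at 2096, 453 and 436 CPM in N5 and fell by 1.87 ± 0.54 on the log2 scale (edgeR adjusted p = 0.0473). In N3 it was at 869, 178 and 424 CPM, also highest in the untreated tumour. Gnai2, a G protein subunit that signals from chemokine receptors, was at 1451, 178 and 218 CPM and fell by 2.52 ± 0.70 (edgeR adjusted p = 0.0364). Ptpre, a tyrosine phosphatase, was at 1289.7, 137 and 65.4 CPM and fell by 3.22 ± 0.96 (edgeR adjusted p = 0.0492).

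Ccl3 and Ccl4 were higher in each treated tumour, and whether they passed depended on the setting. Ccl4 had a log2 fold change of 2.14 ± 0.69 (edgeR adjusted p = 0.0757) and Ccl3 one of 1.45 ± 0.70 (edgeR adjusted p = 0.301). With DESeq2 the adjusted p was 0.00300 for Ccl4 and 0.0394 for Ccl3, which with Cebpb were the genes named here that passed by that tool. With edgeR, Ccl4 also passed with plain library sizes (adjusted p = 0.00244), with no filter (5.47e-08) and without pool 2, 3 or 4 (0.00111, 0.0469 and 0.0127). Ccl3 also passed with edgeR and no filter (adjusted p = 1.2e-05) and without pool 1 (0.00601). The Ccl4 change was 0.60 without pool 1 and 4.03 without pool 2. Over all tested genes the median log2 change was 2.01 with no filter and 1.68 without pool 1. Ccl3 changed by 2.19 and 1.90 in those settings, close to the median gene. Ccl4 was below the median gene without pool 1. In pool 1 the libraries were at 1536 and 868 CPM of Ccl4 in untreated N5 and at 13107 and 16564 CPM in anti-CD40 tumour 1. In pool 2 the untreated ones, with 1 and 3 N5 cells, were at 23316 and 9461 CPM and the treated ones at 7025 and 13137 CPM, so the groups overlapped there.

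None of 21 tested hypoxia and glycolysis genes, 14 lysosomal genes, 24 type I interferon genes, 13 mature neutrophil genes and 6 chemokines passed with edgeR and TMM scaling. Of 17 tested genes of Siglecf-high tumour neutrophils, Cd274 was higher and Csf1 lower.

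**Figure D5:**
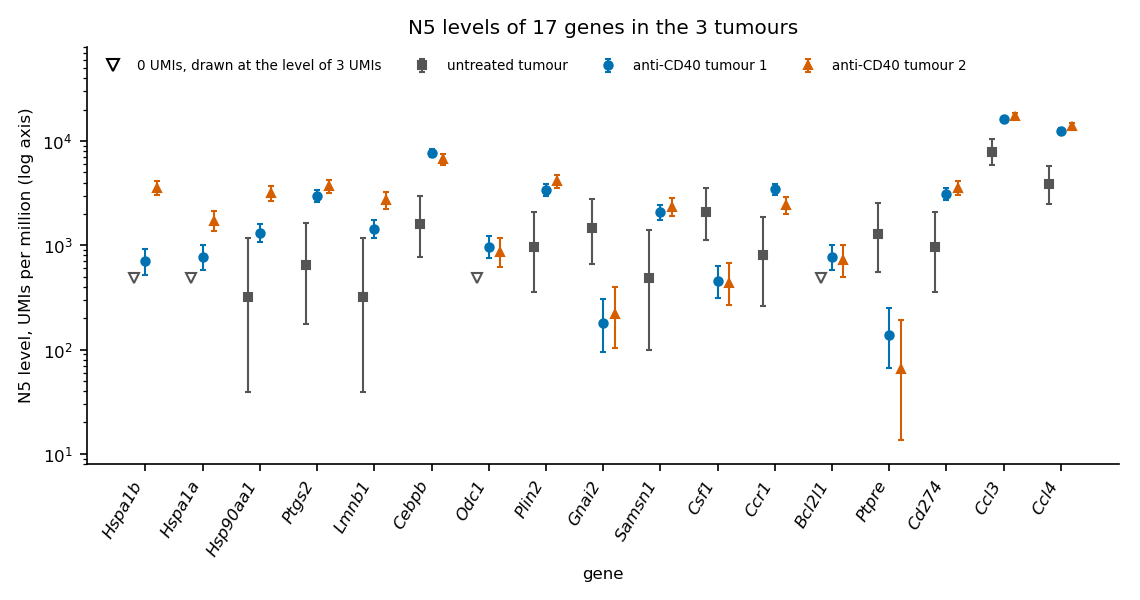
Levels in N5 on a log axis in CPM for the 15 genes that passed the test and for Ccl3 and Ccl4, in the untreated tumour and the 2 anti-CD40 tumours. Open triangles stand for 0 UMIs and are drawn at the level of 3 UMIs. For Cd274 the untreated tumour is at 967 and the treated ones at 3100.4 and 3529.6 CPM.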

How the data were processed

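CD45+ cells of 3 MC38 tumours were sequenced in 12 libraries and 4 pools. The authors deposited raw UMI counts for each gene in each cell. The submitters' processing notes name bcl2fastq, STAR and GRCm38. Not given in the sources used here are versions, counter, annotation, strand setting, cell filters and doublet handling. Cell names, tumours and the N5 annotation were taken from the authors' deposited table of cells. Names of the kind N1a to N5 are the authors', and how they were assigned is not stated in the labels.

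All cells were kept, and doublets were not called. As an alternative, cells with at least 3 UMIs of markers of a second type were left out (0, 1 and 4 N5 cells in the untreated tumour and anti-CD40 tumours 1 and 2). UMIs were summed per subset and tumour and scaled to a total of 1000000 (CPM). For N5 against N1a, N1b, N2 and N3, a pseudocount of 25 CPM was added, genes with a mean of at least 50 CPM were counted, and a 2-fold difference in both treated tumours was required. Named genes were the 20 highest and 10 lowest by the smaller of the 2 log2 ratios, all genes called by treatment, the given markers and list members. Of these, 1 gene is not reported here. Treatment was tested in N5 in R 4.3.3 by edgeR 4.0.16 (TMM scaling, quasi-likelihood test, Benjamini-Hochberg threshold 0.05), checked on simulated data, and DESeq2 1.42.0 was an alternative. edgeR's prior degrees of freedom came out infinite, so p-values rest on a variance shared over genes. That variance reflects only the spread between the 2 treated tumours, and the untreated tumour was assumed to vary like them. Python 3.11.15 with numpy 2.4.6, pandas 2.3.3, scipy 1.17.1 and matplotlib 3.10.9 was used, and positions are from GENCODE M21. The members and lists were chosen with earlier results of these data known. The comparison in the untreated tumour and the centring of ratios were added after seeing the data.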

Additional observations from a re-analysis of the deposited data

How the results depend on the processing

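Of the genes tested for treatment in N5, 15 passed with edgeR. The count was 5 with plain library size (2 higher and 3 lower), 46 with no filter on low counts, 3 with DESeq2 (31 at an unadjusted p under 0.05), and 4, 6, 8 and 13 without pool 1, 2, 3 or 4. It was 0 with a minimum of 20 UMIs, 0 without cells holding markers of a second type and 0 after thinning to 300 UMIs. The median log2 change over all tested genes was 0.34 with TMM scaling and −0.11 with plain library size. That median was 2.01 with no filter and 1.68 without pool 1, so most genes were shifted upward there. Leaving out a treated tumour leaves 1 against 1, which gives values but no test, and Cd274 then had log2 changes of 1.66 and 1.84. The 259 higher and 494 lower genes of N5 against the other subsets became 156 and 217 with a pseudocount of 100 CPM, 114 and 205 with a mean of at least 200 CPM, 112 and 137 against N3 alone, and 81 and 81 beyond the nearest of the 4 subsets. Centring, chosen after seeing the data, gave 368 and 341. Leaving out any pool moved neither count by over 1.5 times. As a share of all CD45+ cells N5 was 1.00, 7.83 and 3.64%. No named gene's treatment change turned sign under the settings run, which reuse the counts that chose the called genes. List medians did: NF-kB targets in tumour 1 went from −0.19 to 0.34 at 200 CPM and 0.05 centred, interferon genes there from −0.04 to 0.20 centred and 0.06 against N3 alone, lysosomal genes in tumour 2 from 0.93 to −0.10 without pool 4, and cytokines in tumour 2 from 0.73 to −0.35 without pool 3. Against N3 alone chemokines and cytokines in tumour 1 were both at −0.18 and survival genes in tumour 2 at −0.04. No paired analysis was possible, because each tumour carries its own animal name in the authors' table and only 1 was untreated. The 14 untreated N5 cells limit every comparison of treatment, and the cause of these differences between settings was not tested.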
